A study of Mus musculus with 4 samples.

Results

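Signalling genes that hold mouse embryonic stem cells in self-renewal or lead them out of it were examined in E14 cells, an established mouse embryonic stem cell line grown with LIF and serum. The group holds 46 of the 23922 genes in the authors' deposited table and was taken by gene name from a fixed list: 7 genes of the LIF pathway, 13 of FGF, 7 of BMP, 10 of Nodal and 9 of Wnt. Cells were transfected with esiRNA, a mixture of short interfering RNAs, aimed either at Pnldc1, which encodes a PARN-like exonuclease, or at luciferase (Luc), which is foreign to mouse cells. Each group had 2 libraries of total RNA depleted of ribosomal RNA and of RNA shorter than 200 nt, and all 4 came from the same line under the same transfection reagent.

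In the deposited table the 4 libraries appear as 2 combined conditions, q1 and q2, and no label ties either name to an esiRNA. Every difference is therefore given as q2 against q1 and has no direction with respect to Pnldc1. The table gives 1 value per gene and condition, so no SD can be given, and the authors' Cuffdiff test, read at a q under 0.05, is the only measure of replicate error. Separate cultures are not stated for the libraries within a group, so these tests speak of the spread between these libraries, which may be technical. In bulk RNA, fewer cells of a type and less RNA per cell cannot be told apart.

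As background, LIF binds the receptor chains LIFR and gp130, which activate JAK kinases and the transcription factor STAT3, and this signal keeps mouse embryonic stem cells undifferentiated. BMP4 acts beside LIF through SMAD1 and SMAD5, which induce the Id genes, and Wnt acts by sparing beta-catenin from destruction, which relieves repression by TCF7L1. FGF4, made by the cells themselves, drives the MEK and ERK kinases and prepares cells to leave the naive state, while Nodal signals through SMAD2 and SMAD3 and is prominent in the epiblast.

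Stem cell identity and the target were checked first. All 12 embryonic stem cell markers were tested by the authors, and their summed value in the authors' deposited table was 2744 in q1 and 3256 in q2. Of the 12, 9 had the higher value in q2, or 7 with upper quartile recentring and 5 with the length and GC trend described below removed. For comparison, 55.3% of tested genes listed above 0 in q1 and in q2 were higher in q2. A q under 0.05 was reached by 4.25% of the 5719 tested. No test was run on the 12 markers as a set. Klf2, a transcription factor gene of the naive state, was the 1 marker that passed, listed by the authors at 87.0 and 149.7 (log2 ratio 0.78, q = 0.00608; 0.36 with that trend removed), and its relative Klf4 had 27.5 and 18.2 there (-0.59, p = 0.032, q = 0.211). Of 8 fibroblast markers 5 were listed at 0 in both conditions, with a summed value of 7.05 in q1 and 13.6 in q2. Most of this sum was Thy1 alone, at 6.17 and 13.0. Of 12 markers of differentiated lineages 2 were listed at 0, with sums of 7.41 and 10.5, and Pax6 was the highest, at 2.27 and 4.54. No fibroblast or lineage marker was tested. Pnldc1 had 18.1 and 26.8 (log2 ratio 0.56, Cuffdiff q = 0.399), which does not tell the esiRNAs apart. Across 5256 tested protein-coding genes the log2 ratio fell with transcript length (Spearman's rho -0.413) and rose with GC content (0.469), a description of genes from the same libraries. A linear fit on both held 27.7% of the variance of the ratio. For each tested member whose ratio it moved by over 1.5 times, the ratio with this trend removed is given beside the plain one. The upper quartile was higher in q2 by 0.14 (log2), and the median ratio of all tested genes was 0.06.

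Id3 was the 1 member that passed the authors' test, higher in q2, and none passed as higher in q1. Of the 46 genes 33 were tested. Over all 5719 tested genes 4.25% passed, 2.31% as higher in q2 and 1.94% as higher in q1, so 1 of 33 does not stand above the background. At a q under 0.1 there were 2 members, Id1 and Id3, beside 7.36% of all tested genes. At an unadjusted p under 0.05 there were 4 members higher in q2 (Id1, Id3, Nodal and Gsk3a) and 2 higher in q1 (Il6st and Ptpn11), or 18.2% of the tested members beside 18.8% of all tested genes (10.5% toward q2 and 8.29% toward q1). The median log2 ratio of the 33 was -0.0049, beside 0.06 over all tested genes, and 31 of the 33 (93.9%) lay within 1.5-fold, beside 82.1% of the 5654 tested genes with values above 0 in both conditions, over which the medians and quartiles of all tested genes are also taken.

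The 13 members without a test were the lowly expressed ones. Their values reached at most 11.1, that of Smad2 in q1, while no tested member went below 12.9. Transducers were most affected, with 9 of 22 untested, against 2 of 8 receptors, 1 of 4 ligands and 1 of 12 feedback genes and targets. Nothing below is a test of these 13 genes.

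**Figure D1:**
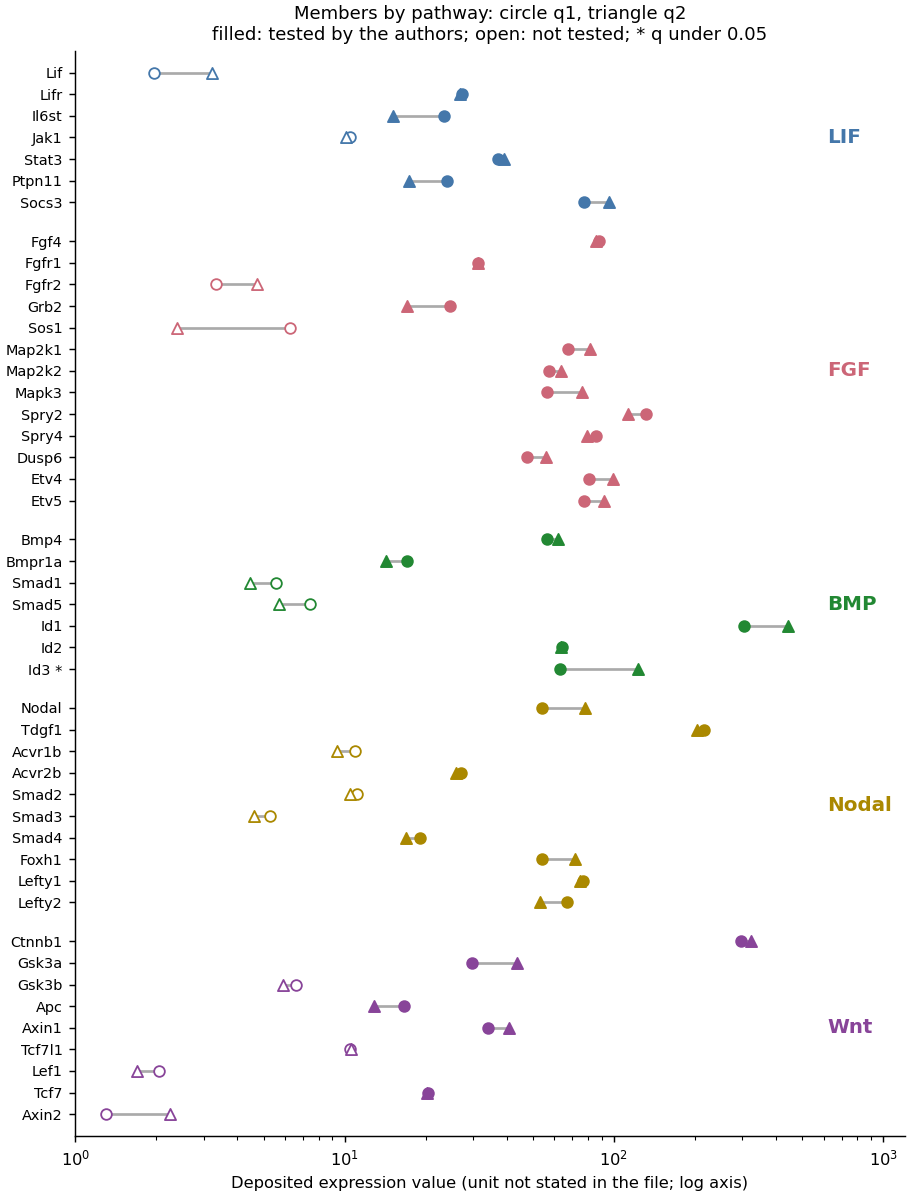
Deposited expression values of the 46 members in q1 (circles) and q2 (triangles) on a log axis, grouped by pathway, with open symbols for the 13 members the authors did not test and an asterisk for Id3. Id1 and Ctnnb1 have the highest values, and the open symbols lie at 11.1 or lower.

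The 1 member that passed, Id3, belongs to the BMP pathway and is 1 of the Id genes. These encode helix-loop-helix proteins that lack a DNA-binding domain and block differentiation factors by pairing with their partners. The authors' deposited table gave Id3 a q1 value of 63.1 and a q2 value of 123, a log2 ratio of 0.96 (1.95-fold; Cuffdiff p = 0.0012, q = 0.0348). Id1, the most abundant member, stood at 303 and 442 by the authors' deposited table, a log2 ratio of 0.54 (p = 0.0031, q = 0.0587), and did not pass. Id2 had 64.4 and 63.5 there (-0.02, q = 0.973). Id4, which is outside the members and was picked after its values were seen, had 4.17 in q1 and 2.98 in q2 (-0.48). It was not tested. Both Id3 and Id1 had their higher value in q2, Id2 had nearly equal values, and whether the genes differ from each other could not be tested. Id1 was 4.81 times the level of Id3 in q1 and 3.59 times in q2, on values taken as per length.

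Id3 and Id1 have short, GC-rich transcripts, of 1278 nt with 55.6% GC and 1160 nt with 54.7% GC, where the median tested protein-coding gene has 2823 nt and 50.9%. After the length and GC trend was taken out the log2 ratio of Id3 was 0.61 and that of Id1 was 0.19. Id2, at 1969 nt and 45.2% GC, was at -0.01. The Id3 call was kept with q adjusted again without histone, ribosomal protein and structural RNA genes (q = 0.0445) and was lost at a q under 0.01. In GRCm38, Id3 lies on chromosome 4 from 136143497 to 136145755, Id1 on chromosome 2 from 152736251 to 152737410, both on the plus strand, and Id2, on the minus strand, on chromosome 12 between 25093799 and 25097140. None overlaps another annotated gene, and no 50-base stretch of the Id1 or Id3 transcript occurs in a transcript of another gene.

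Promoters are shown for Id3, which passed, for Id2, which did not, and for Socs3, the feedback gene of the LIF pathway, because these genes are textbook direct targets of SMAD or STAT factors. They come from RefSeq (GRCm38.p6) and run from 250 bases before to 50 bases after the gene start that RefSeq gives. They are at chr4:136143572-136143871 on the plus strand for Id3, chr12:25096043-25096342 on the minus strand for Id2 and chr11:117969317-117969616 on the minus strand for Socs3. The gene positions given elsewhere are from GENCODE, and each window lies inside its gene as annotated there (Socs3 from 117966079 to 117970047). Capitals mark matches on either strand to the motifs searched: TTCNNNGAA for STAT, CCGGAA for ETS factors, GGCGCC for the GC-rich SMAD1/5 element, GTCT for the SMAD box, AATNCACA for FOXH1 and CTTTGAT for TCF/LEF.
Id3: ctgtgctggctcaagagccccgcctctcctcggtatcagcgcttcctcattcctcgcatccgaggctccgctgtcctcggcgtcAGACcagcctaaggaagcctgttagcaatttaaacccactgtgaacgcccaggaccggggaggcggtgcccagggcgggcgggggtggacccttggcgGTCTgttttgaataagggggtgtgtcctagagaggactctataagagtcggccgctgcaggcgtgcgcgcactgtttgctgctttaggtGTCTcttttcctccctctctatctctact
Id2: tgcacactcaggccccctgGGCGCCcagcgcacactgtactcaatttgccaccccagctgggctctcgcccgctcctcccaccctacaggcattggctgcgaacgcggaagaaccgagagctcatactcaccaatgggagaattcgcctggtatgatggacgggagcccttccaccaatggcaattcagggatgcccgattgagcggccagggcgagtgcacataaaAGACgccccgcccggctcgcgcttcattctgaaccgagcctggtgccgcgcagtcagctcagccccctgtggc
Socs3: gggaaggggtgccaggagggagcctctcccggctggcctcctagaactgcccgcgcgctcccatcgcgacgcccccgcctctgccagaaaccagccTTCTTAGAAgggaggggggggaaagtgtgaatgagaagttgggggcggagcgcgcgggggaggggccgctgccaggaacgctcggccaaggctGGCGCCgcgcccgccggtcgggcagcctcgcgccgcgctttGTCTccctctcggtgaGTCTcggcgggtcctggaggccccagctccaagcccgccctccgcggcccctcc
The Id3 window held 3 SMAD boxes, starting at -166, -68 and 21 relative to the gene start at 0, and none of the other motifs. The Id2 window held GGCGCC at -231 and a SMAD box at -23. The Socs3 window held the STAT motif at -154, GGCGCC at -61 and SMAD boxes at -20 and -4.

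The SMAD box is common, in 88.0% of 32851 RefSeq promoters, so its presence sets no gene apart. GGCGCC was in 11.9% of these promoters, the STAT motif in 8.3%, CCGGAA in 14.9%, AATNCACA in 3.6% and CTTTGAT in 3.73%. Of the 46 members 34 had a promoter in the table, and Socs3 was the 1 with the STAT motif. By gene, with a match in any of its promoters counted, GGCGCC was in 16 of the 34 (47.1%) and in 26.8% of 4254 tested genes with a promoter. These sets were not matched for base composition or for promoters per gene, which reached 4 for Lef1. The 34 also include untested members. CCGGAA went the other way, with 7 of the 34 (20.6%) against 38.6%. Ptpn11 was the 1 member with AATNCACA, and no member promoter held CTTTGAT in this window. Members with no entry were Id1, Fgfr1, Mapk3, Spry4, Etv4, Smad2, Smad4, Foxh1, Lefty1, Lefty2, Apc and Axin1. A match is a run of letters and no evidence of binding.

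Upstream of the Id genes the BMP members did not pass. Bmp4, the ligand, had a q1 value of 56.5 and a q2 value of 61.9 in the authors' deposited table, a log2 ratio of 0.13 (q = 0.785), and this sign turned with upper quartile recentring (-0.0044) and with the trend removed (-0.036). Bmpr1a, its type I receptor, had 17.1 and 14.2 (-0.26, q = 0.580), and with the trend removed its ratio was 0.094. The 2 genes had opposite signs on the plain scale, and each turned under at least 1 other scaling. The transducers Smad1, with values of 5.54 and 4.45, and Smad5, with 7.47 and 5.69, were not tested. The summary of BMP was thus 1 of 5 tested genes passing, beside 4.25% of all tested genes. The median log2 ratio of the 5 was 0.13, which is the Bmp4 ratio, and 0.094 with the trend removed.

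**Figure D2:**
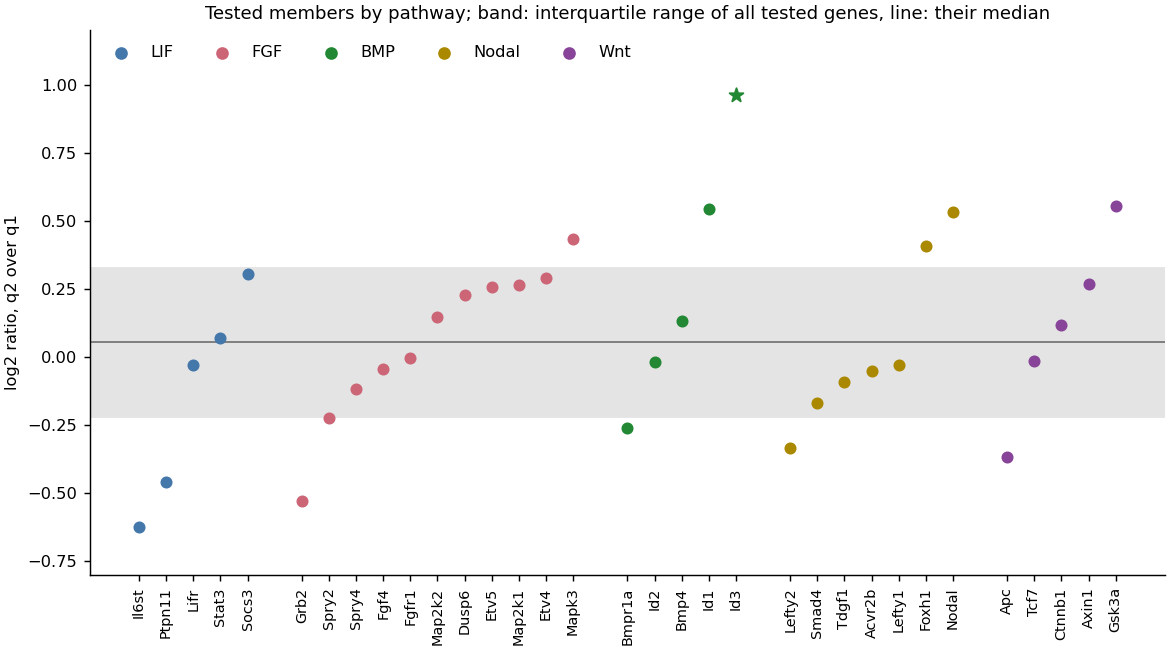
Log2 ratio of q2 over q1 for each of the 33 tested members, sorted within pathways, with the star marking Id3, the grey band the interquartile range of all tested genes (-0.22 to 0.33) and the line their median of 0.06. Id3 lies highest at 0.96, and Il6st lowest at -0.62.

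The Nodal pathway had 7 tested members of 10, and none passed. Nodal itself, the ligand, had a q1 value of 53.9 and a q2 value of 78.0 in the authors' deposited table, a log2 ratio of 0.53 (p = 0.0148, q = 0.147) and did not pass. Its ratio was 0.28 with the trend removed. Foxh1, the forkhead partner through which SMAD2 and SMAD3 reach Nodal target genes, had 54.0 and 71.6 in the same table (0.41, q = 0.391), and its sign turned with the trend removed (-0.023). The co-receptor Tdgf1 (Cripto) was among the most abundant members, at 216 and 203 (-0.09, q = 0.796).

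The feedback inhibitors Lefty1 and Lefty2, which are induced by Nodal signalling and bind Nodal and its co-receptor, did not share the sign of the Nodal ratio. In the authors' deposited table Lefty1 had 76.5 in q1 and 74.9 in q2 (log2 ratio -0.03, q = 0.956), and Lefty2 had 66.9 and 53.1 (-0.33, q = 0.392). Both ratios stayed below 0 under each recentring, and with the trend removed they were -0.41 and -0.43. The genes lie near each other on chromosome 1, from 180935022 to 180938400 and from 180893108 to 180899103 (GRCm38, plus strand), and are close copies: 17.9% of the 50-base stretches of the Lefty1 transcript occur in another gene, which is Lefty2, so reads may be split between them. Tdgf1 shares 12.5% of its stretches with the pseudogene Tdgf1-ps1.

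Apart from the co-receptor Tdgf1, receptors and SMADs of the Nodal branch had values of 27.0 or lower, nearly equal between the conditions. Acvr2b, a type II activin receptor, stood at 27.0 and 26.0 by the authors' deposited table, a log2 ratio of -0.05 (q = 0.945), and Smad4, the partner of all receptor-regulated SMADs, had 19.0 and 16.9 (-0.17, q = 0.782). The type I receptor Acvr1b (10.9 and 9.35), Smad2 (11.1 and 10.5) and Smad3 (5.28 and 4.60) were not tested. All 5 of these values were lower in q2, by ratios of -0.22 or closer to 0, and with the trend removed Acvr2b was at -0.17.

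Members of the LIF pathway included the pair with an unadjusted p under 0.05 toward q1. Il6st, which encodes the shared receptor chain gp130, had a q1 value of 23.3 and a q2 value of 15.1 in the authors' deposited table, a log2 ratio of -0.62 (p = 0.00915, q = 0.111). Ptpn11, which encodes the phosphatase SHP2 that links gp130 to the ERK pathway, had 23.9 and 17.4 in the table of the authors (-0.46, p = 0.0348, q = 0.221). Neither passed, and with the trend removed their ratios were -0.34 and -0.39. Il6st has a long transcript of 8678 nt.

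The other 3 tested LIF genes had log2 ratios between -0.03 and 0.30, and none passed. Lifr, the ligand-specific receptor chain, stood at 27.3 and 26.7 by the authors' deposited table, a log2 ratio of -0.03 (q = 0.956), and its ratio was 0.35 with the trend removed, its transcript being 9655 nt long with 44.4% GC. Stat3 had 37.1 and 39.0 (0.07, q = 0.875), a sign that turned with upper quartile recentring (-0.065), and 0.14 with the trend removed. Socs3, the STAT3-induced inhibitor of gp130 signalling whose promoter is printed above, had 77.7 and 95.8 (0.30, q = 0.378), or 0.02 with the trend removed. The ligand Lif, which the medium supplies, was near the floor at 1.96 and 3.21 (0.71), and Jak1, the receptor-bound kinase, had 10.5 and 10.1, both untested. None of the 5 tested LIF genes passed.

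The FGF pathway was the most fully measured, with 11 of 13 members tested, and none passed or had an unadjusted p under 0.05. Fgf4, the ligand that stem cells secrete, had a q1 value of 88.4 and a q2 value of 85.6 in the authors' deposited table, a log2 ratio of -0.05 (q = 0.913), and Fgfr1, its main receptor in these cells, had 31.4 and 31.3 (-0.0049, q = 0.988). Fgfr1 had the most equal pair of values of the 33. With the trend removed Fgf4 was at -0.084 and Fgfr1 at -0.050. Fgfr2, typical of primitive endoderm, was low at 3.33 and 4.71 and untested, so Fgfr1 stood 9.42 times above it in q1 and 6.63 times in q2, on values taken as per length.

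Between receptor and nucleus, adaptors and kinases of the FGF pathway took opposite signs. Grb2, the adaptor that recruits SOS, stood at 24.7 and 17.1 by the authors' deposited table, a log2 ratio of -0.53 (q = 0.336), and Sos1, the exchange factor that activates RAS, had 6.28 and 2.38 and was not tested. As listed by the authors, Mapk3 (ERK1) had 56.5 and 76.4 (0.43, p = 0.0572, q = 0.282), Map2k1 (MEK1) 67.5 and 81.2 (0.27, q = 0.516) and Map2k2 (MEK2) 57.5 and 63.6 (0.15, q = 0.749). None of the 4 tested genes passed. The sign of Map2k2 turned with the trend removed (-0.19), Mapk3 was at 0.10, Map2k1 at 0.17 and Grb2 at -0.62. Grb2 shares 8.38% of its 50-base stretches with Gm12791 and Gm13542.

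Feedback genes and targets of ERK, which are read as a sign of its activity, were all well expressed and differed little. The Sprouty inhibitors Spry2, with a q1 value of 132 and a q2 value of 113 in the authors' deposited table (ratio on the log2 scale -0.22, q = 0.525), and Spry4, with 85.9 and 79.2 (-0.12, q = 0.743), had lower values in q2. The ERK phosphatase gene Dusp6, with 47.6 and 55.7 (0.23, q = 0.580), and the ETS factor genes Etv4, with 81.0 and 99.0 (0.29, q = 0.420), and Etv5, with 77.1 and 92.2 (0.26, q = 0.424), had higher values in q2. The 5 genes thus took both signs, none passed, and with the trend removed Spry4 was at -0.067 and the sign of Etv4 turned (-0.0055). Etv5 shares 26.8% of its stretches with Gm4798, so its value is uncertain.

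In the Wnt pathway 5 of 9 members were tested and none passed. Ctnnb1, which encodes beta-catenin, had a q1 value of 297 and a q2 value of 322 in the authors' deposited table, a log2 ratio of 0.12 (q = 0.715), the highest value of any member apart from Id1, and its sign turned with upper quartile recentring (-0.019). Among the parts of the complex that destroys beta-catenin, the kinase gene Gsk3a was listed by the authors at 29.8 and 43.7 (0.55, p = 0.0372, q = 0.230), the scaffold gene Axin1 at 34.0 and 40.9 (0.27, q = 0.503) and Apc at 16.6 and 12.9 (-0.37, p = 0.0593, q = 0.286). Gsk3a and Axin1 kept their sign with the trend removed, at 0.22 and 0.13, whereas Apc, with a transcript of 12811 nt, turned to 0.080. Gsk3b had 6.61 and 5.92 and was not tested, so on values taken as per length Gsk3a stood 4.5 times above it in q1 and 7.38 times in q2.

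The TCF/LEF factors and the universal Wnt target Axin2 were low. Tcf7 stood at 20.4 and 20.2 by the authors' deposited table, a log2 ratio of -0.02 (q = 0.987), or -0.14 with the trend removed. Tcf7l1, the repressor that beta-catenin relieves, had 10.5 and 10.6, Lef1 2.04 and 1.69, and Axin2 1.29 and 2.24, all 3 untested. If the values are FPKM, the q1 and q2 values of Axin2 rest on about 6.67 and 13.4 read equivalents and those of Lif on 9.54 and 18.1, too few for a difference to be read.

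**Figure D3:**
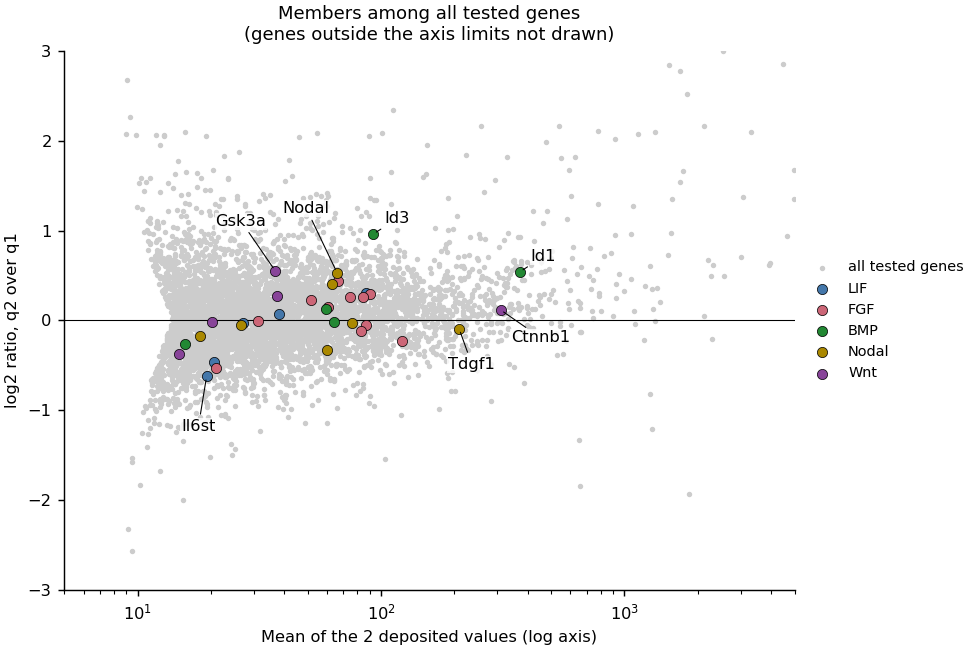
Log2 ratio of q2 over q1 against the mean of the 2 deposited values (log axis) for all tested genes (grey) and the 33 tested members, coloured by pathway. Members lie within the cloud of tested genes, with Id3 at 0.96 and Il6st at -0.62 as their extremes.

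By role, the 6 tested receptors among the members had the same sign on the plain scale, which was not tested as a class. Of all tested genes with values above 0 in both conditions, 55.3% were higher in q2 and the rest mostly higher in q1. Fgfr1, Lifr (-0.03) and Acvr2b (-0.05) were nearly equal between the conditions. All 6 (Lifr, Il6st, Fgfr1, Bmpr1a, Tdgf1 and Acvr2b) had log2 ratios below 0, from -0.62 to -0.0049 with a median of -0.07, though Lifr and Bmpr1a turned above 0 once the trend was removed. None passed, and 1 of the 6, Il6st, had an unadjusted p under 0.05. Of the 2 untested receptors, Fgfr2 had a ratio of 0.50 and Acvr1b 1 of -0.22. Tested receptor genes outside the members, picked after their values were seen, took both signs. Fzd5 (0.04), Fzd7 (0.14) and Fzd10 (0.42) lay above 0, and Lrp5 (-0.07), Lrp6 (-0.30), Lgr4 (-0.82) and Cntfr (-1.67) below it. Lifr, Il6st, Bmpr1a (5956 nt), Fgfr1 (5041 nt) and Acvr2b (3175 nt) have transcripts longer than the median tested gene, and Tdgf1 (1932 nt) has a shorter one. The 3 tested ligands had a median of 0.13, the 13 transducers 0.12 with 8 above 0, and the 11 feedback genes and targets 0.23 with 6 above 0. With the trend removed these medians were -0.04, 0.08 and -0.0055, and that of the receptors was -0.07.

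**Figure D4:**
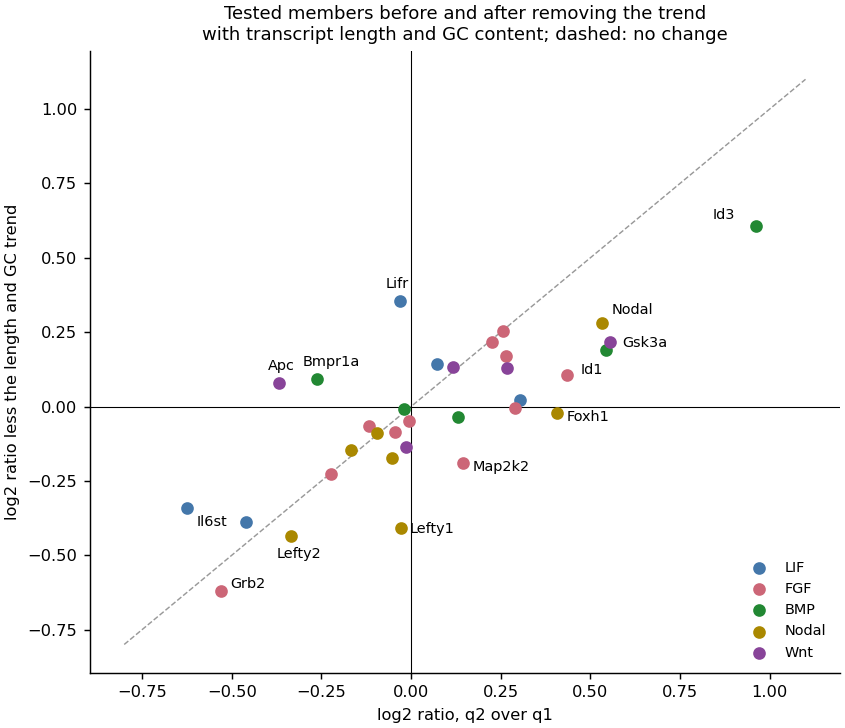
Log2 ratio of each of the 33 tested members (horizontal) against the same ratio after the trend with length and GC of the transcript was removed (vertical), with the dashed line marking equal values. Id3 stays highest, at 0.61, and the 7 members in the upper left and lower right quadrants change sign.

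Other genes of the 5 pathways passed at about the share seen over all tested genes. Of 178 further genes 65 were tested, 1 passed as higher in q2 and 2 as higher in q1, beside the 4.25% of all tested genes that passed, and 15 of the 65 (23.1%) had an unadjusted p under 0.05, beside 18.8%. The gene higher in q2 was Pim3, a kinase gene induced by STAT3, with a q1 value of 102 and a q2 value of 155 in the authors' deposited table (ratio on the log2 scale 0.60, q = 0.0255). Those higher in q1 were Tnks2, a tankyrase that marks axin for degradation, with 103 and 60.0 (-0.78, q = 0.00367), and Lgr4, a receptor for R-spondins that strengthens Wnt signals, with 24.4 and 13.8 (-0.82, q = 0.0387). With the trend removed the ratios of these 3 genes were 0.22, -0.49 and -0.63.

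Around LIF, 13 further genes of 30 were tested with a median log2 ratio of 0.21, or -0.01 with the trend removed. Pim1, the relative of Pim3 and like it a STAT3 target, had 100.4 and 145 in the authors' deposited table (0.53, q = 0.0896). The following were picked after their values were seen: Gbx2 (0.70, q = 0.106) and Junb (0.68, q = 0.125), both STAT3-responsive transcription factor genes, lay toward q2, and Tfcp2l1 (-0.45, q = 0.0848), another STAT3 target, lay toward q1. None of these 4 passed, and with the trend removed the ratios were 0.34 for Pim1, 0.36 for Gbx2, 0.22 for Junb and -0.14 for Tfcp2l1. Cntfr, a receptor subunit gene for the LIF relative CNTF that was also picked after its values were seen, was listed by the authors at 18.8 and 5.90 (-1.67, q = 0.204) and did not pass.

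Around Wnt, 21 further genes of 56 were tested with a median of -0.02. The 2 that passed, Tnks2 and Lgr4, act before the transcription factors, and Csnk1a1, the kinase that primes beta-catenin, stood at 110.4 and 89.8 by the authors' deposited table, a log2 ratio of -0.30 (q = 0.406). Around FGF, none of 17 tested genes of 45 passed, with a median of -0.06. Ier2, an immediate early gene, was listed by the authors at 105 and 118 (0.16, q = 0.694), a sign that turned with the trend removed (-0.29). With the trend removed the ratio of Csnk1a1 was -0.076.

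Around BMP, 3 of 23 further genes were tested and none passed. The inhibitory SMAD gene Smad7 stood at 35.4 and 38.9 by the authors' deposited table, a log2 ratio of 0.14 (q = 0.749), a sign that turned with upper quartile recentring (-0.00062), and Zfp423, a SMAD partner, had 43.8 and 41.3 (-0.08, q = 0.843). With the trend removed these were at 0.016 and -0.17. Around Nodal, none of 11 tested genes of 24 passed, with a median of -0.04. Gdf3, a Nodal-related ligand, had 78.2 and 75.4 (-0.05, q = 0.916), and Drap1, a FOXH1-binding repressor, had 78.7 and 77.1 (-0.03, q = 0.968). With the trend removed Gdf3 was at -0.14 and Drap1 at -0.57.

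**Figure D5:**
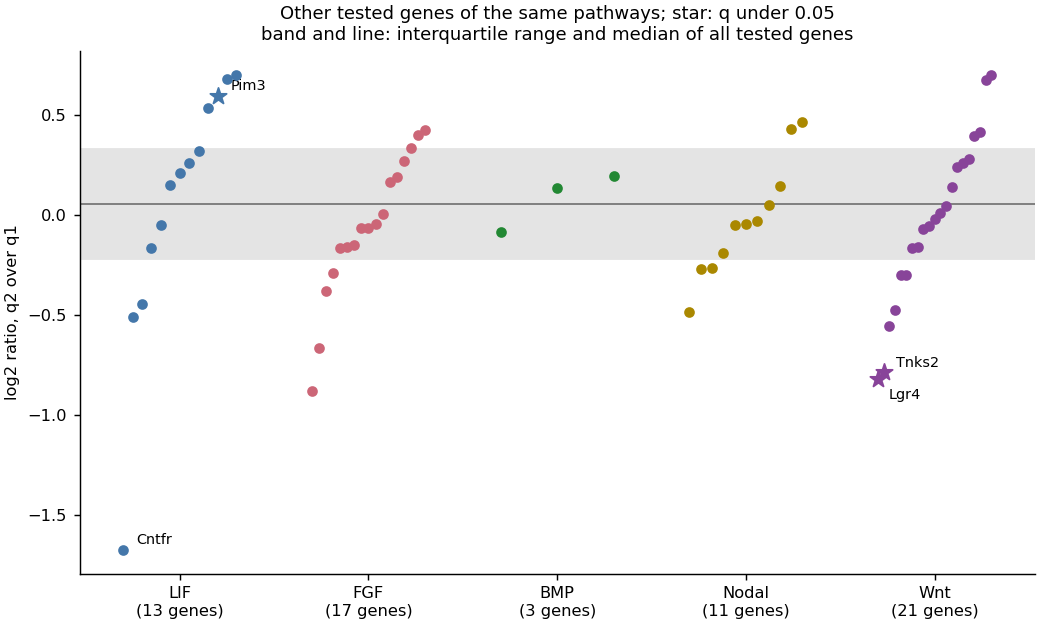
Log2 ratio of q2 over q1 for the 65 tested genes of the same pathways outside the 46 members, sorted within pathways, with stars for the 3 genes at a q under 0.05 and the band and line as the interquartile range (-0.22 to 0.33) and median (0.06) of all tested genes. Pim3 is the star toward q2 at 0.60, and Tnks2 and Lgr4 are those toward q1 at -0.78 and -0.82.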

How the data were processed

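RNA of 2 libraries per esiRNA was sequenced. The submitters' processing notes name TopHat, Cuffdiff and the builds mm10 and GRCm38.p4, and the sources used here give no version, option or annotation. Per the file headers, the authors made 1 expression value per gene and condition (unit not stated; Cuffdiff gives FPKM by default). A signed score from the authors' test was deposited with each gene and not used further. Per the file headers, the p-value and the adjusted q-value of each gene are also those the authors computed before deposit. The libraries could not be told apart, so the design's Cuffdiff option was used. The log2 ratio was computed from the deposited values. Calls are Cuffdiff q under 0.05 over all 5719 tested genes; the q-values differed from a Benjamini-Hochberg adjustment by at most 5.24e-07.

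No depth is given. Taken as FPKM, low values in q1 and q2 lay within 0.15 of a whole fitted step for 69.3% and 66.5% of genes with up to 3 steps (evenly spread values would give 30.0%), equivalent to about 1210000 and 1400000 fragments; no count test was run.

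Transcripts (longest basic one per gene) and positions are from GENCODE M21 (GRCm38), found for 5454 tested genes; promoters are from RefSeq GRCm38.p6. Adjustment and trend fit were tested on simulated data. Members and lists were chosen with earlier results of these data known. Named genes were all members, Pnldc1, stem cell markers, further pathway genes that passed and the 2 most abundant per pathway; others are marked. A gene this rule names is not reported here. Hras was matched as Hras1. Python 3.11.15, numpy 2.4.6, pandas 2.3.3 and scipy 1.17.1 were used.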

Additional observations from a re-analysis of the deposited data

How the results depend on the processing

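For the 46 members, the count that passed as higher in q2 was 1 at a q under 0.05, 0 at a q under 0.01, 2 at a q under 0.1 and 4 at an unadjusted p under 0.05; as higher in q1 it was 0 at each q threshold and 2 at an unadjusted p under 0.05. For the further pathway genes these counts were 1, 0, 2 and 7 toward q2 and 2, 1, 4 and 8 toward q1. Adjusting without the 189 histone, ribosomal protein and structural RNA genes left every count as it was. The filter on values under 10 removed none of the 5719 tested genes and so tested nothing. The median log2 ratio of tested members was -0.0049, and -0.06 with median recentring, -0.14 with upper quartile recentring, -0.0048 with a pseudocount of 1 and -0.0089 after removal of the length and GC trend. Median recentring and the pseudocount turned the sign of none of the 33 members. Upper quartile recentring turned Stat3 (-0.065), Bmp4 (-0.0044) and Ctnnb1 (-0.019). Removing the trend turned Lifr (0.35), Map2k2 (-0.19), Etv4 (-0.0055), Bmp4 (-0.036), Bmpr1a (0.094), Foxh1 (-0.023) and Apc (0.080). No paired analysis was possible because single libraries have no values in the table, and for the same reason no replicate could be left out. The trend was removed from ratios only, so it gives no new test. Low values left 13 members untested.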
